A study of Mus musculus with 4 samples.

Results

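The 33 genes described here act in the endoplasmic reticulum (ER), where secreted and membrane proteins enter the secretory route, and were taken as a fixed list of gene symbols from the 32285 genes of the count matrices. They comprise 11 chaperones, 4 disulfide isomerases, 4 factors of the unfolded protein response, 4 genes of ER-associated degradation, 7 subunits of the translocon and its associated complex, and 3 subunits of the signal peptidase. All 33 had UMIs (unique molecular identifiers, each standing for 1 captured RNA molecule) in the cells used, and all 33 passed the filter on low counts in the fits on all cells.

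A newly made secretory protein passes through the Sec61 channel into the ER, the signal peptidase removes its signal peptide, and chaperones of the heat shock protein and lectin families fold it while disulfide isomerases pair its cysteines. When unfolded protein builds up, the sensors IRE1, PERK and ATF6 start the unfolded protein response, which acts through the spliced Xbp1 mRNA, Atf4 and cleaved Atf6 and raises the supply of chaperones and of the machinery that sends misfolded protein to the proteasome. In the intestinal crypt, goblet and Paneth cells carry a heavy load of secreted mucins and antimicrobial proteins, whereas Lgr5-positive stem cells divide and secrete little.

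The cells came from crypts of the distal small intestine, after the villi had been scraped off, of 8 mice of the genotype Lgr5-EGFP-IRES-CreERT2;Rosa26-mTmG given 4-OH-tamoxifen. Mice 1 to 4 were traced for 48 h and mice 5 to 8 for 72 h, and each mouse gave a sort of GFP-high cells, called clones, and a sort of GFP-negative epithelium, called control. Control cells of mice 1, 2, 5 and 6 and clones of mice 3, 4, 7 and 8 went into pool 1 and the rest into pool 2, so each of the 4 groups had 2 mice in each pool, while the gates of 1 mouse were always in different pools. All mice carried both alleles and received the drug, so the control is the unrecombined epithelium of the same animals and not an untreated group. Cre was driven from Lgr5, and the Lgr5 allele itself makes a green protein, so a GFP-high gate can also take up cells by their own Lgr5 level.

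After demultiplexing and filters, 1993 of 4029 single cells were used, with 110 clone and 586 control cells at 48 h and 631 and 666 at 72 h. Clones at 48 h were thin: mice 1, 2, 3 and 4 gave 4, 15, 83 and 8 cells, or 77566 to 298850 UMIs per mouse, against 1471640 to 5042193 in their control. Clones of mouse 3 stood apart, with a median of 1841 UMIs per cell and a median of 48.6% of a cell's hashtag counts on its top hashtag, against 74.1% to 95.8% in the other 15 sums. The pools shared 1 cell barcode. Clusters were named from markers and are called "like" a cell type: 414 stem-like, 372 dividing-like, 170 enterocyte-like, 270 goblet-like, 180 secretory progenitor-like, 49 dividing secretory-like, 66 Paneth-like, 34 enteroendocrine-like and 48 tuft-like cells. Clusters led by Hells (235 cells), Gsdmc3 (118 cells) and Gm10800 (37 cells, a median of 1646 UMIs) stayed unnamed. The labelled epithelial identity was borne out by low levels of other lineages: over all 16 sums the markers of immune cells reached at most 39.9, of endothelium 16.7 and of stroma 0.8 CPM (counts of UMIs per 1000000 UMIs of the sum).

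The promoters are shown first because the ER stress response element is the textbook site through which Atf6 and Xbp1 act on this gene set. RefSeq promoters on GRCm38.p6, from 250 bases before to 50 bases after the start site, matched 27 of the 33 genes and missed Hyou1, Manf, Atf6, Sec61a1, Ssr2 and Spcs3. CCAAT and CCACG parted by 9 bases, searched on both strands, were found in 8 members, and in 37 of 27025 promoters of that length (0.137%). The related type II element, ATTGG and CCACG parted by 1 base, was found in Dnajb11 and Herpud1, and in 12 promoters in all (0.0444%); no member held both kinds. The core TGACGTG was present in Hspa5 alone among members and in 2.22% of promoters, and TGATG and AAT parted by 1 base, a form bound by Atf4, in no member and in 1.08%. In the stretches below, which are given on the strand of the gene, capitals mark the element from its first to its last fixed base.

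Hspa5, chr2:34772020-34772048, + strand: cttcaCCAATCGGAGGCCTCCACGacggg
Hsp90b1, chr10:86705633-86705661, - strand: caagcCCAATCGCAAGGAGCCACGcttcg
Hsp90b1, chr10:86705528-86705556, - strand: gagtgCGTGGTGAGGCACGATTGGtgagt
Calr, chr8:84847070-84847098, - strand: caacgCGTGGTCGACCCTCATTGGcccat
Canx, chr11:50325795-50325823, - strand: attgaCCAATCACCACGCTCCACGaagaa
Dnajc3, chr14:118937822-118937850, + strand: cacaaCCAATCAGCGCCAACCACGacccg
Creld2, chr15:88819515-88819543, + strand: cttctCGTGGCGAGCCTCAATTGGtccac
Pdia6, chr12:17266486-17266514, + strand: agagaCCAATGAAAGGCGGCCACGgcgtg
Syvn1, chr19:6046527-6046555, + strand: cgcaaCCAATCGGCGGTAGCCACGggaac
Herpud1, chr8:94386372-94386392, + strand (type II): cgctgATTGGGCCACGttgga

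Read on the gene's own strand, the element stood forward in Hspa5, Canx, Dnajc3, Pdia6, Syvn1 and Herpud1 and inverted in Calr and Creld2, and Hsp90b1 held it in both orientations. The element ended between 25 bases (Syvn1) and 193 bases (the outer copy in Hsp90b1) before the start site. The match in Dnajb11 reaches past the start site, so it is not printed and is not part of these distances. A match of letters is a description of these windows and does not show that a factor binds there. The 10 members with either element had a median goblet-like minus stem-like difference of 1.87 on the log2 scale and the 17 members whose promoter held none 1.61, with ranges of 0.27 to 2.72 and 1.01 to 3.03. The 6 members with no promoter entry also had 1.87, and in Paneth-like cells the order was turned, at 1.38 with an element and 1.43 without.

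Levels are CPM of a sum over the cells of 1 mouse in 1 class, and differences between classes are means over mice of the log2 difference of (level + 1), with their SD. Since the classes were made by clustering the same cells, these values carry no test, although the members and 72 other genes of the pathway were kept out of the clustering. The members' summed share of all UMIs was lowest in stem-like cells at 0.439% ± 0.063 (SD, n = 8 mice). It was 0.502% ± 0.079 in tuft-like (n = 5), 0.597% ± 0.107 in dividing-like (n = 8), 0.706% ± 0.080 in enteroendocrine-like (n = 4) and 0.839% ± 0.134 in enterocyte-like cells (n = 8). Paneth-like cells had 1.23% ± 0.31 (n = 6), dividing secretory-like 1.53% ± 0.13 (n = 4), goblet-like 1.58% ± 0.24 (n = 8) and secretory progenitor-like cells 1.61% ± 0.29 (n = 8). The last 3 lay within 1 SD of each other. Stem-like and tuft-like cells overlapped over mice, at 0.383% to 0.560% and 0.432% to 0.628%. The highest stem-like mouse (0.560%) lay below the lowest goblet-like mouse (1.04%) and the lowest Paneth-like mouse (0.757%). Of the unnamed clusters, the Hells cluster had 0.529% ± 0.110 and the Gsdmc3 cluster 0.853% ± 0.159. The shallow Gm10800 cluster, in which goblet markers were raised, had 1.02% and 1.22% in the 2 mice with enough cells. Goblet-like cells joined a deep cluster at 1.64% and a shallow cluster at 1.25%, the latter with a median of 9103 UMIs and 10.2% mitochondrial UMIs; the part of depth in that gap was not tested.

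**Figure D1:**
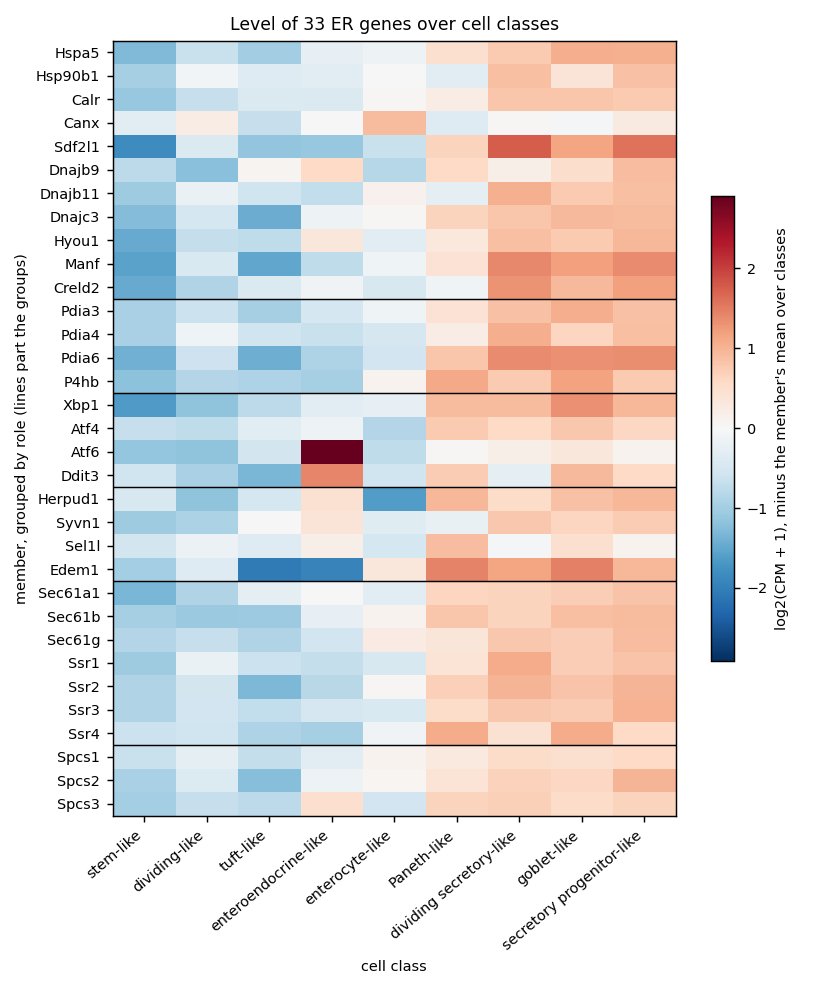
Level of each of the 33 genes (rows, grouped by role) in 9 cell classes (columns), as log2 of the mean CPM over mice + 1, minus the gene's mean over the classes. The 4 columns at the right, Paneth-like to secretory progenitor-like, are red for most genes, stem-like cells are blue for every gene, and Canx in enterocyte-like and Atf6 in enteroendocrine-like cells break the pattern.

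Nearly the whole list was higher in goblet-like, secretory progenitor-like, dividing secretory-like and Paneth-like cells than in stem-like cells. In goblet-like cells 32 of 33 members were higher in each of the 8 mice, beside 17.4% of all genes compared, with a median difference of 1.73 against -0.27 for all genes; Herpud1 was the exception. Secretory progenitor-like cells also had 32 members higher in every mouse (all genes 14.2%), without Sel1l, at a median of 1.86. Dividing secretory-like cells had 30 (all genes 23.3%), without Ddit3, Sel1l and Dnajb9, and a median of 1.83 in 4 mice. Paneth-like cells had 29 (all genes 9.32%), without Canx, Hsp90b1, Syvn1 and Herpud1, and a median of 1.43 beside -0.57 for all genes. That Paneth-like shift of the whole transcriptome was the largest of these comparisons, and with differences centred on the median gene 32 members were higher there in every mouse.

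Enterocyte-like and dividing-like cells, and the enteroendocrine-like and tuft-like classes of the secretory lineage, differed less from stem-like cells. Enterocyte-like cells had 21 members higher than stem-like cells in every mouse (all genes 17.9%), at a median of 0.96, and dividing-like cells 15 (all genes 14.2%), at 0.43. Enteroendocrine-like cells, which secrete peptide hormones, had 18 members higher in all 4 mice (all genes 25.3%) and 12 after centring on the median gene, with Edem1 and Ssr4 lower in all 4. Tuft-like cells, chemosensory cells of the same lineage, had 4 members higher in all 5 mice (all genes 16.5%) and a median of 0.03. The tuft-like count is below the share of all genes.

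The chaperones had the highest median difference of the 6 roles in goblet-like (2.27) and secretory progenitor-like cells (2.24), while in Paneth-like cells the disulfide isomerases did (1.71, against 1.41 for the chaperones). Hspa5, or BiP, the main ER chaperone of the heat shock family, read 430, 482, 340, 335, 248, 231, 296 and 357 CPM in stem-like cells of mice 1 to 8. In goblet-like cells of the same mice it read 2031, 2013, 1976, 1796, 1435, 897, 1842 and 1891, a log2 difference of 2.35 ± 0.24. The classes did not overlap, and mouse 6 was lowest in both. Sdf2l1, a partner of BiP in the ER lumen, rested on fewer molecules, at 10.3 to 38.9 in stem-like and 71.9 to 207 in goblet-like cells. Its difference was the largest of the list in goblet-like (3.03 ± 0.49), secretory progenitor-like (3.47 ± 0.78), dividing secretory-like (3.71 ± 0.37), Paneth-like (2.69 ± 0.41) and dividing-like cells (1.39 ± 0.54). Manf, a secreted protein that binds BiP, was next in secretory progenitor-like cells (3.00 ± 0.43) and led the list in enterocyte-like cells (1.46 ± 0.56). Manf overlaps Rbm15b on its own strand and Dcaf1 on the other, and whether reads were counted by strand is not given in the sources used here, so its reads may be shared with them. Creld2, a small secreted ER stress protein, was among the 3 largest in secretory progenitor-like (2.79 ± 0.82) and in tuft-like cells (1.13 ± 1.01).

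Summed over the 11 chaperones, the level was 1676 ± 393 CPM in stem-like, 3656 ± 758 in enterocyte-like, 5959 ± 1187 in goblet-like and 6630 ± 1250 in secretory progenitor-like cells (8 mice each). Paneth-like cells, at 3933 ± 1288 in 6 mice, were closer to enterocyte-like than to goblet-like cells in this sum. Against goblet-like cells of the same mice, 8 members were lower in Paneth-like cells in all 6 mice (all genes lower 12.2%), with Dnajb11 at -0.88 ± 0.40, Syvn1 at -0.86 ± 0.60 and Manf at -0.75 ± 0.63. Over all 33 members the median difference between these classes was -0.26, beside -0.30 for all genes. The list as a whole thus fell about as much as all genes. Creld2 had the lowest mean there (-1.02 ± 0.96) and was lower in 5 of the 6.

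Of the 4 disulfide isomerases, all were higher in goblet-like than in stem-like cells in every mouse, and their sum was 681 ± 108 CPM in stem-like and 3179 ± 460 in goblet-like cells (n = 8). The sum in Paneth-like cells was 2356 ± 595 (n = 6), against 1293 ± 224 in enterocyte-like cells (n = 8). Pdia6 differed most (2.72 ± 0.32 in goblet-like cells). P4hb, the classical protein disulfide isomerase, read 785 ± 95 in goblet-like and 746 ± 141 in Paneth-like cells and 593 ± 143 in secretory progenitor-like cells, and was higher in goblet-like than in progenitor-like cells in 8 of 8 mice (0.43 ± 0.31). Pdia3, which works with the lectin chaperones, followed the list almost exactly.

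Among the transcription factors, Xbp1 read 58.0 ± 17.9 CPM in stem-like and 462 ± 44 in goblet-like cells (n = 8), a difference of 3.02 ± 0.34. Goblet-like levels ran from 400 to 512 over mice and stem-like levels from 39.8 to 93.9, with no overlap. Paneth-like cells were 2.60 ± 0.33 and enterocyte-like cells 1.42 ± 0.45 above stem-like cells. The counts do not tell spliced from unspliced Xbp1 mRNA. Atf4, the factor made when PERK slows translation, was at 147 ± 25 in stem-like, 131 ± 30 in enterocyte-like, 405 ± 23 in goblet-like and 397 ± 132 in Paneth-like cells. Ddit3, the stress factor CHOP, was at 21.4 ± 4.0 in stem-like and 63.3 ± 13.9 in goblet-like cells; its locus overlaps Mars on the other strand.

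The 4 genes of ER-associated degradation had correlations with the rest of the list, described further on, of 0.68 to 0.80. Edem1, which picks misfolded glycoproteins for removal, was 2.58 ± 0.41 above stem-like cells in Paneth-like cells and 1.39 ± 0.53 in enterocyte-like cells. It was the lowest member in enteroendocrine-like cells, at -1.73 ± 2.12 and lower in 4 of 4 mice, with a mean of 8.56 CPM and 0 in mouse 1. Sel1l, the partner of the ligase Syvn1, differed little from stem-like cells in secretory progenitor-like (0.65 ± 0.45) and dividing secretory-like cells (0.39 ± 0.45), while Paneth-like cells had its highest mean, 97.5 ± 41.0. Syvn1 itself stood at 11.1 ± 6.2 in stem-like and 37.7 ± 12.4 in goblet-like cells.

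All 7 translocon genes and all 3 signal peptidase genes were higher in goblet-like than in stem-like cells in each mouse. The translocon sum was 1354 ± 132 CPM in stem-like, 2501 ± 306.3 in enterocyte-like, 4476 ± 659 in goblet-like (n = 8) and 4022 ± 1067 in Paneth-like cells (n = 6). Sec61b, a channel subunit, read from 277 to 405 in stem-like and from 727 to 1403 in goblet-like cells. Ssr4, of the translocon-associated complex, was higher in goblet-like than in secretory progenitor-like cells in 8 of 8 mice (0.51 ± 0.29) and had its highest mean in Paneth-like cells, 946 ± 218. The signal peptidase sum was 252 ± 46 in stem-like, 672 ± 107 in goblet-like and 807 ± 135 in secretory progenitor-like cells. Spcs1 gave one of the 3 smallest differences between goblet-like and stem-like cells, 1.11 ± 0.36.

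Between goblet-like and secretory progenitor-like cells, Edem1 (0.53 ± 0.26), Ssr4 and P4hb were higher in goblet-like cells in all 8 mice (all genes 6.19%), and Hsp90b1 (-0.48 ± 0.24) and Canx were lower (all genes 14.5%). These 3 and 2 of 33 members are near or below the shares of all genes. Dividing secretory-like cells, compared with dividing-like cells of the same 4 mice, had 29 members higher in every mouse (all genes 15.2%), with Herpud1 at 2.48 ± 0.42 and Xbp1 at 2.07 ± 0.13, and Canx and Sel1l lower in all 4. Enterocyte-like cells were below goblet-like cells for 30 members in every mouse (all genes 17.2%), most for Herpud1 (-2.67 ± 0.90). Enteroendocrine-like cells were below goblet-like cells for 22 members in every mouse (all genes 13.4%), most for Edem1 (-4.00 ± 1.98). Edem1 read only 0, 8.96, 16.7 and 8.59 CPM in enteroendocrine-like cells of mice 1, 3, 6 and 8. The size of its difference therefore depends on the pseudocount of 1.

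Ranked by class means, the highest class was dividing secretory-like for 11 members, secretory progenitor-like for 9, goblet-like for 7, Paneth-like for 3, enteroendocrine-like for 2 and enterocyte-like for 1. The lowest class was stem-like for 17 members, tuft-like for 10, dividing-like for 3, enterocyte-like for 2 and enteroendocrine-like for 1. Each member's log2 class means were correlated with the mean of the other members over 9 classes that share mice and libraries, as a description. Pearson's r was 0.8 or above for 25 of 33 members and highest for Hspa5 (0.993), Pdia3 (0.980) and Ssr3 (0.979). It was lowest for Canx (0.178), Atf6 (0.284) and Ddit3 (0.601).

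The rest of the pathway, 72 further genes of ER folding, glycosylation, targeting, degradation and stress sensing, was compared the same way, beside the shares of all genes given above. In goblet-like cells 51 of 67 such genes that could be compared were higher than in stem-like cells in every mouse, at a median of 1.33. The count was 46 of 67 in secretory progenitor-like, 50 of 67 in dividing secretory-like and 41 of 67 in Paneth-like cells. It was 18 of 65 in enterocyte-like, 23 of 65 in enteroendocrine-like, 11 of 65 in tuft-like and 13 of 64 in dividing-like cells. The median of these genes was below the members' median in each of the 8 classes, as at 1.06 in Paneth-like and 0.26 in enterocyte-like cells.

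Canx (chr11:50293961-50325673, - strand), the membrane-bound lectin chaperone calnexin, did not follow the other chaperones. It read 256, 316, 275, 226, 286, 253, 283 and 274 CPM in stem-like cells of mice 1 to 8, and 356, 387, 311, 382, 310, 271, 296 and 319 in goblet-like cells. The 2 classes overlapped across mice, at a difference of 0.27 ± 0.23. In enterocyte-like cells it read from 533 to 790 over the 8 mice, with a median of 642. Those levels lay above all stem-like and goblet-like values, 0.98 ± 0.13 above goblet-like cells and higher in 8 of 8 mice. Canx was the only member whose class mean was highest in enterocyte-like cells, although its promoter holds the element printed above.

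**Figure D2:**
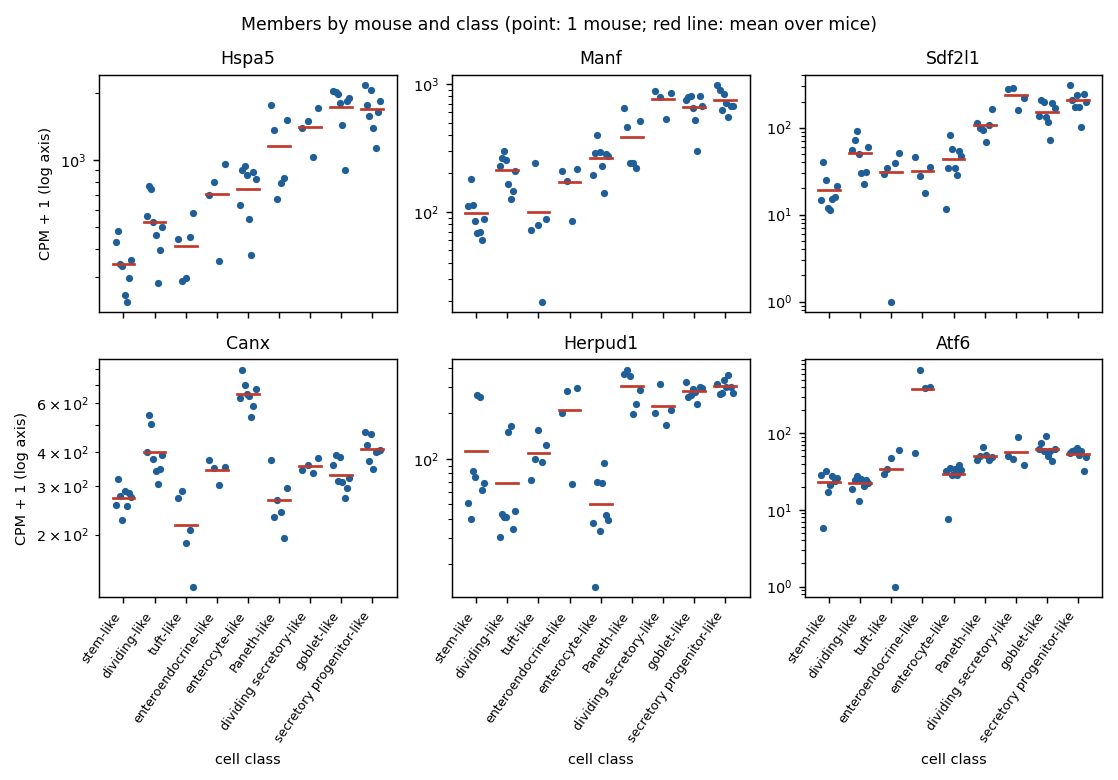
Level of 6 members (CPM + 1, log axis) by mouse and cell class; each point is 1 mouse and the red line the mean over mice. Hspa5, Manf and Sdf2l1 climb from the stem-like class at the left to the secretory classes at the right, Canx peaks in enterocyte-like cells, Herpud1 has 2 high mice in stem-like and dividing-like cells, and Atf6 is high in 3 of 4 mice of the enteroendocrine-like class.

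Atf6, the stress sensor that is cut in the Golgi to free a transcription factor, was highest in enteroendocrine-like cells. It read 54.5, 663, 384 and 395 CPM there in mice 1, 3, 6 and 8, a mean of 374 ± 249, while its mean in the other 8 classes lay between 21.1 and 61.8. Mouse 1 lay within the range of goblet-like cells (43.1 to 91.2) and the other 3 mice above it. The difference from stem-like cells was 3.25 ± 1.55, and the class held 34 cells in all, 27 of control and only 7 of clones. The breakdown by cell was made after these values were seen. Of 248 Atf6 UMIs in the class, 205 were in 7 cells with 14 to 56 UMIs each, from 4 mice and all of the control gate. Mouse 3 gave those with 29, 31, 25 and 56 UMIs, and mice 5, 6 and 8 gave 1 each, with 17, 14 and 33. Mouse 5 had too few cells of the class for a level above. No other cell of the 1993 had 10 or more Atf6 UMIs, and the most in 1 goblet-like cell was 8. All 7 cells had UMIs of Tph1, which makes serotonin, from 7 to 109 each, and of Tac1, the tachykinin precursor, from 34 to 261. The 7 cells had no UMI of Gcg, the glucagon precursor, which 9 of the other 27 cells had. The 11 cells with any Tph1 UMI held 983 CPM of Atf6 and the 23 cells without one 70.5, at median depths of 20813 and 15477 UMIs. A clone cell of mouse 8 with 139 Tph1 and 164 Tac1 UMIs had 7 of Atf6. With so few clone cells in the class, no difference between the gates is read from these cells. Atf6 (chr1:170704674-170867771, - strand, GENCODE M21) overlaps no protein-coding gene in the annotation.

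**Figure D3:**
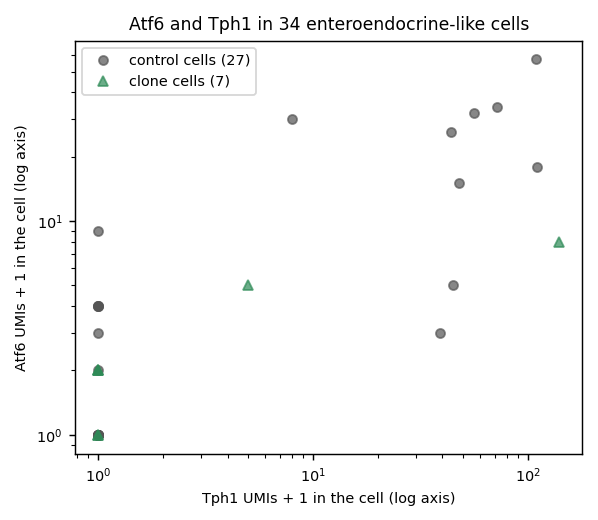
Atf6 against Tph1 in the 34 enteroendocrine-like cells (UMIs + 1, both axes log). Circles are the 27 control cells and triangles the 7 clone cells. The 7 cells with 14 to 56 Atf6 UMIs all carry Tph1 and are control cells, and cells at the left edge have no Tph1 UMI.

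Herpud1 (chr8:94386438-94395377, + strand), an ER membrane protein of the degradation machinery, differed between mice in stem-like and dividing-like cells. In stem-like cells of mice 1 to 8 it read 50.3, 38.9, 81.9, 74.6, 262, 254, 61.4 and 68.0 CPM. In dividing-like cells it read 29.4, 41.96, 40.2, 40.3, 149, 164, 33.4 and 44.0. Mice 5 and 6 were high in both, and in the Hells cluster they read 138 and 162 against 29.2 to 61.3 in the other 6 mice. In enterocyte-like cells mouse 6 was highest at 92.7, but mouse 5 (68.7) lay below mouse 3 (69.3), and in the Gsdmc3 cluster mouse 6 was highest at 92.6 while mouse 5 (52.9) lay below mice 3 and 7 (69.0 and 64.9). No such gap showed in goblet-like cells (228 to 324, with 276 and 228 in mice 5 and 6) or secretory progenitor-like cells (267 to 356, with 298 and 356). Outside the secretory classes, mice 5 and 6 read 206 and 210 in clones and 130 and 170 in control, while the other 12 sums lay between 28.1 and 79.3. Since mice 5 and 6 make up 2 of the 4 mice of 72 h, the spread in Herpud1 at 72 h rests on them. No test was run on this division of mice, which was seen in the values.

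With every cell of a mouse and gate summed, the members were lower in clones than in control at both times. In such sums, fewer cells of a type and less RNA per cell cannot be told apart. At 48 h the members' summed share was 0.442%, 0.644%, 0.721% and 0.956% of UMIs in clones of mice 1 to 4, and 1.18%, 1.17%, 1.07% and 1.11% in their control. All 4 clone values lay below all 4 control values, and this held within each pool. At 72 h the share was 0.642%, 0.643%, 0.587% and 0.970% in clones of mice 5 to 8 and 0.793%, 0.692%, 0.908% and 1.21% in control. Clones were lower in each of the 4 mice, but the groups overlapped, as they also did within pool 1 alone.

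The make-up of the sums also differed between the gates. Secretory classes were a smaller part of clones than of control in every mouse but mouse 6, where the summed share of the members was still lower in clones. The part of make-up in the shares was not tested. Cells of secretory classes were 0%, 6.67%, 6.02% and 25.0% of 48 h clones of mice 1 to 4 and 47.6%, 47.3%, 32.6% and 46.3% of their control. At 72 h they were 18.8%, 40%, 10.8% and 30.4% of clones and 28.0%, 34.7%, 32.5% and 49.5% of control in mice 5 to 8. The 9 goblet markers, all with UMIs in each group, summed to 387 to 32964 CPM in 48 h clones and 21935 to 35451 in their control, and to 14256 to 37844 and 22695 to 51914 at 72 h. The 13 stem markers summed to 3181 to 7503 in 48 h clones and 2101 to 2734 in control, and to 3705 to 6580 and 1697 to 3263 at 72 h. Sums without the secretory classes are therefore given further on.

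**Figure D4:**
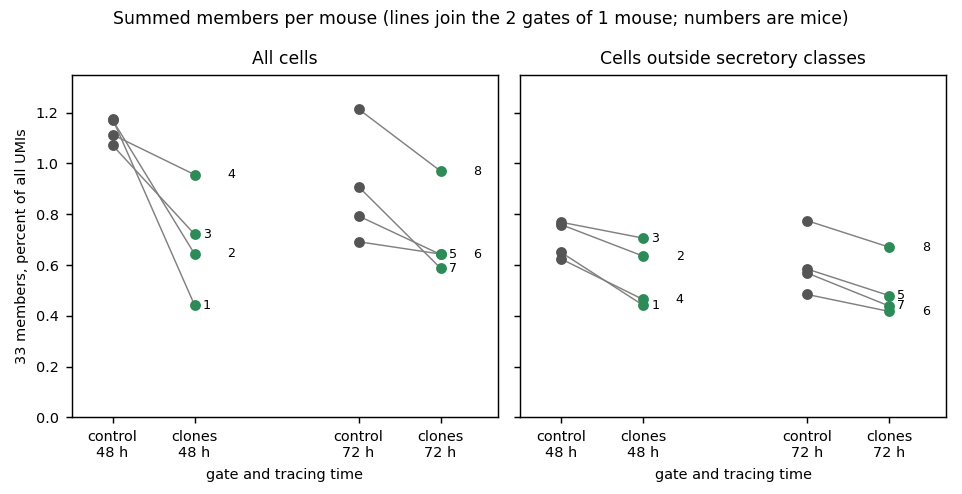
Summed share of the 33 genes in all UMIs, in percent, per mouse and gate, for all cells (left) and without the secretory classes (right); lines join the 2 gates of 1 mouse and numbers name the mice. Each line falls from control to clones, in all cells from between 0.692% and 1.21% to between 0.442% and 0.970% and in the right panel from between 0.484% and 0.775% to between 0.418% and 0.706%.

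In edgeR's quasi-likelihood test with the pool as covariate and no pairing of mice, no member passed an adjusted p of 0.05 at 48 h (all genes called 0%) or at 72 h (all genes called 0%). At 48 h 24 members had an unadjusted p under 0.05 (all genes 11.98%), all 33 estimates were negative, the median was -0.78 against -0.07 over all genes, the smallest adjusted p was 0.234, and DESeq2 called 2 members. At 72 h 12 members had an unadjusted p under 0.05 (all genes 7.94%), all 33 estimates were negative with a median of -0.39 against 0.01, the smallest adjusted p was 0.568, and DESeq2 called 0. Clones and control of 1 mouse are a true pair, and with the mouse as a block edgeR called 9 members lower at 48 h (all genes lower 0.764%) and 3 lower at 72 h (all genes lower 1.12%), and none higher. With the block, these p-values set the clone-control difference against its spread between mice, with the gates of each mouse in different pools. The 48 h count was 0 without mouse 1 and 0 without mouse 2, and the 72 h count was 0 without mouse 5, without mouse 7 and without mouse 8.

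The 9 members called at 48 h with the mouse block were 5 chaperones, Pdia6, Xbp1, Sec61b and Ssr1. Manf read 155, 209, 211 and 300 CPM in clones of mice 1 to 4 and 537, 491, 459 and 427 in control, a log2 change of -1.17 ± 0.20 (SE; edgeR adjusted p = 0.0101). Hspa5 read 451, 557, 743 and 797 against 1220, 1196, 1099 and 1146 (-0.95 ± 0.17; edgeR adjusted p = 0.0126). Creld2 read 12.9, 20.5, 36.8 and 31.6 against 79.4, 87.7, 79.5 and 60.5 (-1.54 ± 0.31; edgeR adjusted p = 0.0254), from 1, 5, 11 and 4 UMIs in the clones. For each of these 3 every clone value lay below every control value, and mouse 1 had the lowest clone level. Dnajc3, a BiP cochaperone, read 77.4, 156, 157 and 126 in clones and 262, 255, 225 and 209 in control (-0.85 ± 0.19; edgeR adjusted p = 0.0404). Hsp90b1, the ER member of the heat shock 90 family, read 322, 836, 803 and 782 against 1219, 1249, 1080 and 1028 (-0.82 ± 0.19; edgeR adjusted p = 0.048). Neither overlapped between gates, and for Hsp90b1 mouse 1 stood far below the other 3 clone sums.

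Pdia6, an isomerase that also tunes IRE1 signalling, read 116, 193, 321 and 458 in 48 h clones and 547, 561, 502 and 487 in control. Xbp1 read 64.5, 73.8, 147 and 245 against 253, 266, 227 and 262, and here mouse 4 reached into the control range. Sec61b read 387, 393, 499 and 734 against 806, 846, 768 and 845. The changes were -1.04 ± 0.24, -1.03 ± 0.24 and -0.79 ± 0.18, each at an edgeR adjusted p of 0.048. Ssr1, of the translocon-associated complex, read 64.5, 65.6, 144 and 118 against 217, 204, 182 and 187, with no overlap (-1.03 ± 0.20; edgeR adjusted p = 0.0242). In Pdia6, Xbp1 and Sec61b the clones of mouse 4, which had the highest share of secretory cells (2 of 8 cells), were highest.

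Other members with the most UMIs of their role did not pass at 48 h. Sec61g, the small channel subunit, read 374, 397, 569 and 939 in clones and 987, 898, 745 and 780 in control, and Pdia3 245, 582, 492 and 789 against 883, 886, 847 and 930. With the mouse block their edgeR adjusted p-values were 0.0552 and 0.0546. Spcs2, a signal peptidase subunit, read 90.3, 201, 241 and 276 against 298.3 to 328.2 in the 4 control sums (edgeR adjusted p = 0.167). The gates did not overlap for Pdia3 and Spcs2, and overlapped for Sec61g through mouse 4. Atf4 read 219, 201, 147 and 253 against 246, 244, 233 and 301.8 (edgeR adjusted p = 0.239). Herpud1 read 77.4, 53.3, 83.7 and 205 against 162, 128, 150 and 173 (edgeR adjusted p = 0.302). Both overlapped. Dnajb11, a further BiP cochaperone, read 64.5, 86.0, 124 and 134 against 170, 166, 138 and 122 (edgeR adjusted p = 0.264). In all, 18 of 33 members had every 48 h clone sum below every control sum (all genes 5.92%), and 21 were lower in clones of each mouse (all genes 11.5%).

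At 72 h the 3 called members were chaperones or their partners. Creld2 read 28.5, 23.4, 24.0 and 50.6 in clones of mice 5 to 8 and 38.2, 31.9, 53.3 and 76.6 in control (-0.68 ± 0.16; edgeR adjusted p = 0.0334). Manf read 200, 144, 174 and 320 against 269, 195, 381 and 479 (-0.69 ± 0.17; edgeR adjusted p = 0.0348). Dnajb11 read 60.2, 45.5, 60.5 and 107 against 90.8, 66.4, 107 and 141 (-0.64 ± 0.15; edgeR adjusted p = 0.0354). Each was lower in clones of all 4 mice while the groups overlapped, because mouse 8 was high in both gates and mouse 6 low in both. No member had all 72 h clone sums below all control sums (all genes 1.55%), and 17 were lower in clones of each mouse (all genes 9.84%).

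The other members listed for 48 h did not pass at 72 h. Hspa5 read 514, 369, 522 and 944 in clones and 667, 536, 957 and 1253 in control (edgeR adjusted p = 0.0549 with the mouse block), and Dnajc3 118, 107, 112 and 187 against 155, 145, 184 and 247 (0.067). Hsp90b1 read 623, 569, 588 and 1008 against 762, 701, 855 and 1033. Sec61b read 507, 530, 402 and 715 against 584, 515, 686 and 970. Those 4 overlapped between gates. Sec61g read 473, 392.2, 495 and 820 against 703, 543, 606 and 889, and Ssr1 115, 79.9, 109 and 184 against 135, 118, 129 and 189. Xbp1 read 125, 162, 126 and 184 against 187, 164, 174 and 245, and Pdia6 239, 287, 225 and 441 against 312, 272, 387 and 611. In Pdia6 and Sec61b mouse 6 was higher in clones than in control. Pdia3 read 458, 586, 450 and 786 against 574, 530, 659 and 941, and Spcs2 177, 137, 161 and 248 against 225, 186, 265 and 313. Atf4 stayed within 189 to 203 in clones and 186 to 257 in control, in mice 5 to 8 201, 192, 189 and 203 against 203, 186, 198 and 257. Herpud1 read 224, 229, 89.2 and 114 in clones and 172, 191, 137 and 186 in control, higher in clones of mice 5 and 6 and lower in those of mice 7 and 8.

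Cells outside the secretory classes were then summed alone. These sums kept the unnamed clusters, among them the Gm10800 cluster with raised goblet markers (21 clone cells of 37), so they are not free of goblet transcripts. The members' summed share there was 0.442%, 0.635%, 0.706% and 0.465% in 48 h clones of mice 1 to 4 and 0.650%, 0.759%, 0.769% and 0.625% in control. At 72 h it was 0.480%, 0.418%, 0.439% and 0.671% in clones of mice 5 to 8 and 0.585%, 0.484%, 0.569% and 0.775% in control. Clones were lower in each of the 8 mice, and the groups overlapped at both times. Without the block edgeR called no member at 48 h (all genes called 0%, 2 members at an unadjusted p under 0.05) or at 72 h (all genes called 0.051%, 4 members), and DESeq2 called 0 at each. The median estimates were -0.25 and -0.28, beside -0.05 and 0.01 over all genes.

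With the mouse block outside the secretory classes, edgeR called no member at 48 h (all genes lower 0.316%, 14 members at an unadjusted p under 0.05, DESeq2 0). At 72 h it called 4 members lower (all genes lower 3.75%): Manf at -0.54 ± 0.12 (adjusted p = 0.00554), Dnajb11 at -0.60 ± 0.14 (0.00764), Sec61g at -0.40 ± 0.11 (0.0219) and Dnajc3 at -0.53 ± 0.15 (0.0263). Manf read 111, 77.7, 101 and 206 in clones of mice 5 to 8 and 162, 107, 173 and 266 in control, lower in each mouse with overlapping groups. Sec61g read 365, 284, 365 and 599 against 576, 428, 429 and 633. The count was 0 without mouse 5 and 0 without mouse 7, 1 without mouse 8, 7 without mouse 4 and 12 without mouse 3. Enterocyte markers moved with these values, summing to 356 to 512 CPM in 72 h clones and 541 to 1058 in control, and stem markers to 5118 to 7448 and 2923 to 4760; their part in the result was not tested. Estimates were negative for 27 of 33 members at 48 h and for 30 of 33 at 72 h. Those for Atf4 were positive, at 0.40 ± 0.19 at 48 h and 0.20 ± 0.14 at 72 h (edgeR adjusted p = 0.48 and 0.457). Herpud1 was higher in clones of every mouse at both times. Dnajb9 at 48 h read 32.5 to 40.9 CPM in clones, from 24 UMIs, and 19.4 to 27.3 in control.

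**Figure D5:**
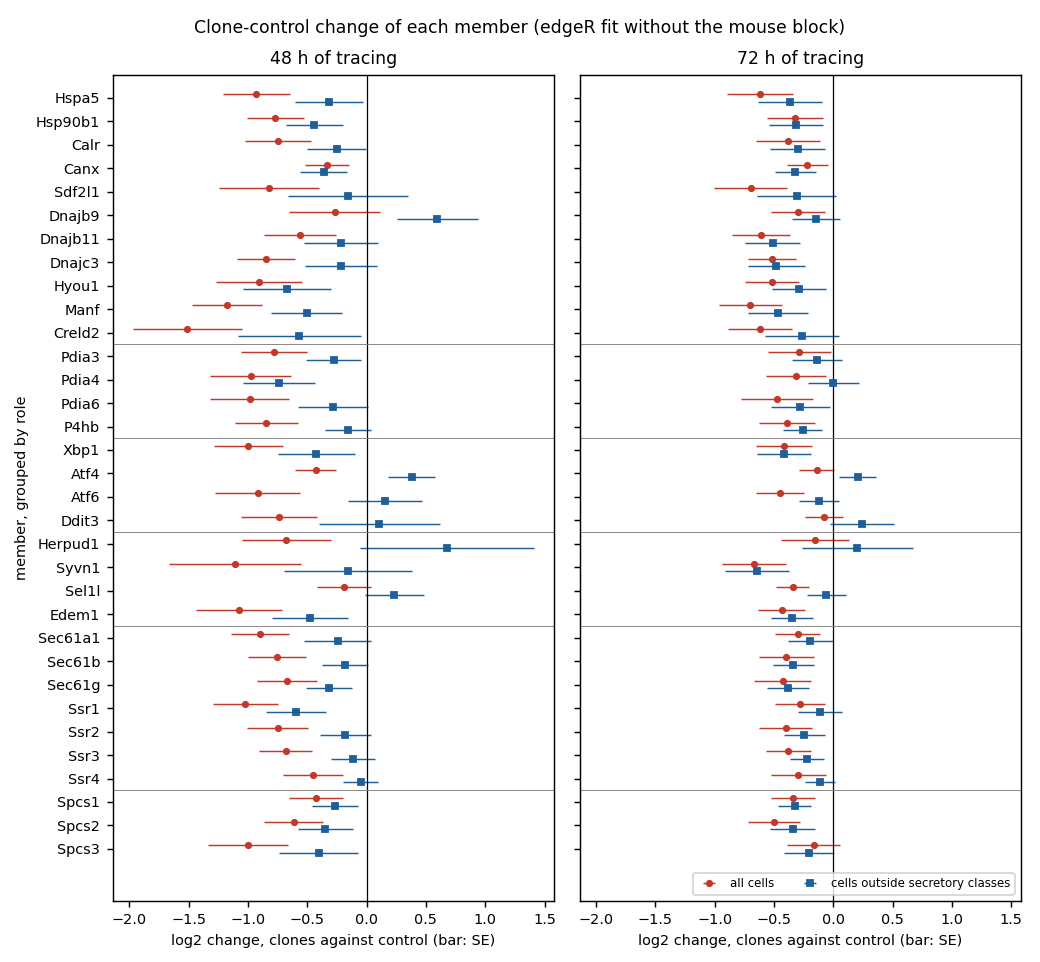
Log2 change of each member between clones and control (edgeR without the mouse block; bars are 1 SE), at 48 h (left) and 72 h (right), for all cells (red circles) and cells outside the secretory classes (blue squares). All 33 circles lie left of 0 in both panels, and at 48 h most squares lie nearer to 0 than the circles.

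Within single classes the gates could be fitted at 72 h only. No member was called in stem-like (183 clone and 119 control cells, all genes called 0%), goblet-like (64 and 109 cells, all genes called 0%) or dividing-like cells (138 and 106 cells, all genes called 0.0142%) or in the Hells cluster (82 and 55 cells, all genes called 0%). At an unadjusted p under 0.05 there was 1 member in stem-like cells and 0 in the other 3, and DESeq2 called 0 in each. The median estimate was -0.10 in stem-like, -0.02 in goblet-like and -0.04 in dividing-like cells and 0.14 in the Hells cluster. Manf, for example, was at -0.32 ± 0.21, -0.25 ± 0.30, -0.06 ± 0.21 and 0.05 ± 0.31 in that order (edgeR adjusted p = 1.00 for each). With 3 or 4 sums a group, even changes well above these SEs could go uncalled, so the lack of calls does not show that the gates were alike within a class.

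Tracing times were compared across different mice. No member changed between 48 h and 72 h in clones (all genes called 0%, 1 member at an unadjusted p under 0.05) or in control (all genes called 0.0849%, 0 members), by edgeR, and DESeq2 called 0 in each. Control estimates had a median of -0.27 (all genes -0.01) with 27 of 33 below 0, the lowest being Creld2 at -0.51 ± 0.25 and Manf at -0.44 ± 0.26 (edgeR adjusted p = 0.877 for both). Clone estimates had a median of 0.10 (all genes 0.07), from Dnajb11 at -0.48 ± 0.31 to Herpud1 at 0.78 ± 0.38 (edgeR adjusted p = 0.84 and 0.781). Whether the gates differed by another amount at 72 h than at 48 h was tested directly as an interaction, which called no member without the block (all genes called 0%, 1 member at an unadjusted p under 0.05) or with it (all genes called 0.0943%, 3 members), and DESeq2 called 0 in each. It was positive for 30 of 33 members without the block, with a median of 0.39 (all genes 0.08), so the smaller differences at 72 h are not shown to differ from those at 48 h.

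Of the other 72 genes of the pathway, 68 were tested on all cells and none passed without the block at either time. With the mouse block edgeR called 7 lower at 48 h. These were the stress factors Ern2 (-2.08 ± 0.39; adjusted p = 0.0164) and Creb3l1 (-1.61 ± 0.33; 0.0260), the disulfide isomerase Agr2 (-2.82 ± 0.62; 0.0349), the ER selenoproteins Selenom (-1.47 ± 0.35; 0.0480) and Selenos (-1.25 ± 0.24; 0.0229), the cargo receptor Lman1 (-1.03 ± 0.22; 0.0304) and the signal peptidase subunit Sec11c (-0.85 ± 0.18; 0.0299). Ern2 and Agr2 are known as genes of mucus-producing cells. The summed goblet markers given above overlapped between the gates at 48 h, at medians of 4552 CPM in clones and 34481 in control. Muc2 read 25.8, 180, 428 and 2589 in clones of mice 1 to 4 and 3467, 4181, 1890 and 3519 in control. The part of these markers in the calls was not tested. At 72 h Selenok was called lower (-0.53 ± 0.13; edgeR adjusted p = 0.0432). Outside the secretory classes Fkbp2 was lower at 72 h (-0.46 ± 0.14; edgeR adjusted p = 0.0419), and Agr2 was higher at 48 h (2.09 ± 0.31; edgeR adjusted p = 0.00438). There Agr2 read 90.3, 382, 1637 and 218 CPM in clones of mice 1 to 4 and 87.5, 94.5, 152 and 115 in control, so mouse 3 stood apart and mouse 1 was nearly level. The goblet markers summed to 387 to 5857 CPM in those clones and 475 to 904 in control, and the Gm10800 cluster, with raised goblet markers and 21 clone cells of 37, was part of these sums. The part of the markers in the result was not tested. The change of Agr2 was 1.36 ± 0.22 without that cluster (edgeR adjusted p = 0.00441) and 1.34 ± 0.29 without mouse 3 (0.00414). It was not called without mouse 2 (1.88 ± 0.39; edgeR adjusted p = 0.0597), at clustering resolution 0.6 (1.54 ± 0.41; 0.111) or with cells under 10% mitochondrial UMIs (0.01 ± 0.40; 0.998).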

How the data were processed

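Single-cell RNA and hashtag libraries of 2 pools were used. The deposited matrices hold UMI counts per gene and hashtag, per the file headers; the submitters' processing notes name Cell Ranger 6.1.2 and mm10. Other columns of the files hold gene and barcode names, as deposited by the authors. Per-pool totals were 30278443 and 28050962 UMIs.

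Hashtags were called with HTODemux (Seurat 5.3.0, quantile 0.99), which gave 4029 singlets; multiplets were dropped this way and no other doublet caller was run. Cells needed 1000 UMIs, 500 genes and under 20% mitochondrial UMIs. Clustering used scanpy 1.11.5 (2000 variable genes without the members and the 72 other pathway genes, 30 components, 15 neighbours, resolution 1). Class sums needed 5 cells, and class comparisons 4 mice and genes at 10 or more CPM; the pseudocount was 1.

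For the gates and times, the UMIs of each mouse's clones and control were added up (16 sums) and fitted with edgeR 4.0.16 (TMM, filterByExpr, pool as covariate, Benjamini-Hochberg over all genes). DESeq2 1.42.0 and a mouse block were alternatives. Clone and control cells with 1 hashtag come from the same mouse, per the labels, so the block pairs them; correlations of their deviations were -0.00 to 0.09 at 48 h and 0.22 to 0.56 at 72 h. The fits were tested on simulated data. R was 4.3.3 and python 3.11.15.

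Named were all members called in a fit, the member of each role with the most UMIs, the 3 largest and 3 smallest class differences, the 3 most and least alike, and called genes of the other list. The members and lists were chosen with earlier results of these data known.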

Additional observations from a re-analysis of the deposited data

Results flagged for a closer look

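Of 80 groups of 4 to 8 mice checked for a value far from the others, 5 were marked, and chance marks about 1 in 20. Hsp90b1 in 48 h clones was far below the other mice in mouse 1, at 322.3 CPM, a sum of 4 cells that were all stem-like. In 72 h clones mouse 8 was far above the other 3 mice for Hsp90b1 (1008 CPM), for Dnajc3 (187 CPM) and for the summed members (0.9699% of UMIs). Control cells of mouse 8 were also the highest of 72 h for the summed members, at 1.21%. In goblet-like cells the summed members of mouse 6 were far below the other 7 mice, at 1.042% of UMIs.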

How the results depend on the processing

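Over the alternatives run, 323 of 375 counts stayed within 1.5 times their main value and tested values of single members kept their sign, holding their side of the threshold in 181 cases and losing it in 75. The 323 include counts of 0 that stayed 0. They also include class counts that could not change because the mouse left out had no sum in that class. This share therefore does not measure how stable the other counts were. Untested medians against stem-like cells turned at the 50% mitochondrial limit, from 1.43 to -0.05 (Paneth-like) and 0.03 to -0.25 (tuft-like), and the tuft-like median was -0.03 without mouse 8. The correlation of Canx with the list turned from 0.18 to -0.01 at resolution 0.6. At 48 h without pairing, 0 members became 9 with the mouse as a replicate block, 2 with DESeq2 and 22 with no filter on low counts; at 72 h 0 became 3 with the block and 5 with no filter. With the block at 48 h, 9 became 0 without it, 15 with DESeq2, 4 with RLE factors, 21 with no filter, 15 and 20 at mitochondrial limits of 10% and 50%, and 16 with the top hashtag at 70% or more. With the block at 72 h, 3 became 0 without it, 0 with DESeq2, 6 with RLE, 9 with no filter, and 0 and 7 at the 10% and 50% limits. Leaving out 1 mouse gave 0 to 16 at 48 h and 0 to 9 at 72 h. Outside the secretory classes at 72 h, 0 became 4 with the block, and 4 became 0 without it, 7 with the hashtag limit and 0 to 12 with 1 mouse left out. There at 48 h with the block, 0 became 1 with no filter, 6 at 10%, 1 at 50%, 2 with the hashtag limit, 1 without the shallow unnamed cluster and 0 to 5 with 1 mouse left out. Within dividing-like cells and the Hells cluster leaving out 1 mouse gave 0 to 1. Against stem-like cells, the Paneth-like count became 0 at 50%, where a cluster at 30.4% mitochondrial UMIs joined that class; the tuft-like count of 4 became 7 in control cells, 1 at 50% and 4 to 6 with 1 mouse left out. The dividing-like count of 15 became 8 in clone cells, 8 with the hashtag limit and 15 to 20 with 1 mouse left out. Alternatives chosen after seeing the data were the other settings tried with the block, centring on the median gene and leaving out the shallow cluster. The block could not be fitted within single classes, for want of residual degrees of freedom. Depth limits the 48 h clones most, with 4 to 83 cells per mouse.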
